A study of Mus musculus with 51 samples.

Results

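H3K4me3 peaks were compared between leptonema and zygonema, the 2 stages of meiotic prophase in which double-strand breaks (DSBs) form and homologous chromosomes begin to synapse. The material was nuclei sorted by flow cytometry from whole testes of adult wild-type C57Bl/6J male mice. Leptotene nuclei were gated on SCP3, an axis protein of meiotic chromosomes, and on STRA8, and were sorted apart from the other stages. Zygotene nuclei were gated on SCP3 and on the intensity of SCP1, with H1t absent, and by microscopy this was the least pure of the sorts. The part of neighbouring stages in the zygonema lists was not tested. Each stage had 2 libraries, from experiments 1 and 2, made with the EpiCypher antibody. No treatment or genetic change was applied to any of them. The 4 libraries were chosen by stage, mark and antibody among 20 libraries with a peak list, in a series of 51 samples. They held 49636 peaks, which were merged into 21726 sites wherever peaks of different libraries touched.

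H3K4me3 marks the nucleosomes that flank active promoters, where it is placed by methyltransferases of the SET1 and MLL families. In meiotic prophase, PRDM9, a zinc-finger protein with its own methyltransferase domain, binds specific DNA words and adds the same mark at recombination hotspots, most of them away from promoters. A peak list of these stages therefore holds promoters and candidate sites of the second kind side by side. A transcription start site (TSS) was given a window of 500 bp to each side of the first base of every GENCODE M21 transcript, on mm10.

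Between leptonema and zygonema, H3K4me3 peaks were gained mostly away from TSSs. Lost sites lay mostly at TSSs, as kept sites did. A site was called gained when both zygonema libraries and neither leptonema library had a peak, lost in the opposite case, and kept when all 4 libraries had a peak. There were 1819 gained sites, 8.37% of all merged sites, and 774 lost sites, 3.56%. A further 6895 sites (31.7%) were kept, and 12238 sites had another combination. Of the gained sites, 1688 (92.8%, exact 95% binomial interval 91.5 to 93.9) lay outside TSSs. Of the lost sites, 638 (82.4%, interval 79.6 to 85.0) lay at a TSS, and 5944 kept sites (86.2%) did so. These intervals and those below cover counting error over sites only. In sorted bulk nuclei, a mark on fewer nuclei and less mark per nucleus cannot be told apart.

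The sequence at the gained sites held words that were rarer at their sides. The search was made in the 200 bp around the centre of the zygonema peaks, with 200 bp windows from 500 bp to 700 bp on both sides as the comparison. Words of 8 fixed letters with up to 3 free letters (N) inside were chosen on odd chromosomes and counted on even chromosomes, on both strands, and each word was chosen among the sites without the previous one. The first word, GNNGNTGCTGC, was held by 79 of 825 centres on even chromosomes (9.58%, interval 7.65 to 11.8) and by 0.546% of the side windows. The second, GNNGCTACTNC, was held by 4.00% of the centres and 0.303% of the sides. The third, AGANGNTGCT, was held by 6.42% and 1.03%, and the fourth, GNNGNTACTGT, by 3.27% and 0.849%. At least 1 of the 4 words was present in 20.6% of the centres (17.9 to 23.5) and 2.61% of the sides. The words overlap, since all 4 contain GNNGNTNCT. That shorter word was present in 57.9% of the centres, 30.6% of the sides and 36.4% of the central 200 bases of all RefSeq promoters.

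The sequences below are shown because they carry these words. The first is the centre of the gained site with the highest width rank, on an odd chromosome. That site overlapped an annotated exon and the gene Grm4, which encodes a metabotropic glutamate receptor. The next 4 are 90 bases from gained sites on even chromosomes, the highest in width rank among those with a word, and the last 2 are from kept sites outside TSSs chosen in the same way. All are on the plus strand of GRCm38.p6 (mm10), and capitals mark the matches to the 4 words. An exon label means that the merged site overlapped an exon of any annotated gene. The gene named is the protein-coding gene that the site overlapped. Whether the exon belongs to that gene, or holds the bases shown, was not tested.
Gained, Grm4 exon, at chr17:27453351-27453550: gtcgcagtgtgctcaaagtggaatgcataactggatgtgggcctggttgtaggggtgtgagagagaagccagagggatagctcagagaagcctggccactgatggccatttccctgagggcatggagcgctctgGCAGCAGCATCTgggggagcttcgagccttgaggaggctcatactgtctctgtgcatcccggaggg
Gained, intergenic, at chr2:57864120-57864209: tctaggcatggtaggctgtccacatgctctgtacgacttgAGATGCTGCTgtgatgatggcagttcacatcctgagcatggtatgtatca
Gained, Gmnc exon, at chr16:26960824-26960913: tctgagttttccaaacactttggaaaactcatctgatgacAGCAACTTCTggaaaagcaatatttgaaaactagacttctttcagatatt
Gained, second intergenic site, at chr12:28156629-28156718: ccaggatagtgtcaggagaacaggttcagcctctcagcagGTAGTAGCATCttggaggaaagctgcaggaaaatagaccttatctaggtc
Gained, annotated exon, at chr2:180371004-180371093: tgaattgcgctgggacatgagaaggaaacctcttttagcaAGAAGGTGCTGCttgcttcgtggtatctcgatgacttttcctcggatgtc
Kept, intergenic, at chr2:147562283-147562372: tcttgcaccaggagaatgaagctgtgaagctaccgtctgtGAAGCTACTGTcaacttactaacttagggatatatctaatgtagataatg
Kept, Dennd1a exon, at chr2:38137657-38137746: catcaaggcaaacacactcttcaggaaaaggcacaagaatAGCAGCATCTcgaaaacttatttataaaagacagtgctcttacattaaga
The peaks at these 4 gained sites on even chromosomes were between 1169 and 1457 bp wide in zygonema experiment 1 and between 1014 and 1968 bp in experiment 2. The intergenic kept site was 1697 bp and 1648 bp wide in leptonema, then 2310 bp and 3863 bp in zygonema. The Dennd1a site was 1845 bp and 1981 bp wide in leptonema, then 2388 bp and 3314 bp in zygonema. The kept sites were picked by width rank in zygonema alone, so greater width in that stage was favoured by the choice.

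The same words were as frequent at the kept sites outside TSSs. At least 1 of the 4 words was present in the centre of 188 of 951 such sites (19.8%, 17.3 to 22.4) and in 2.64% of their sides. Lost sites had them in 8.46% of centres at TSSs (6.42 to 10.9) and in 3.68% of centres outside TSSs (1.20 to 8.37). Kept sites at TSSs had them in 7.02% of centres (6.38 to 7.69), against 3.52% of the central 200 bases of all RefSeq promoters. The first word was held by 6.74% of lost and 5.47% of kept TSS centres and the third word by 0.627% and 0.976%. A match here is a description of letters, and binding of a factor was not measured in these libraries.

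**Figure D1:**
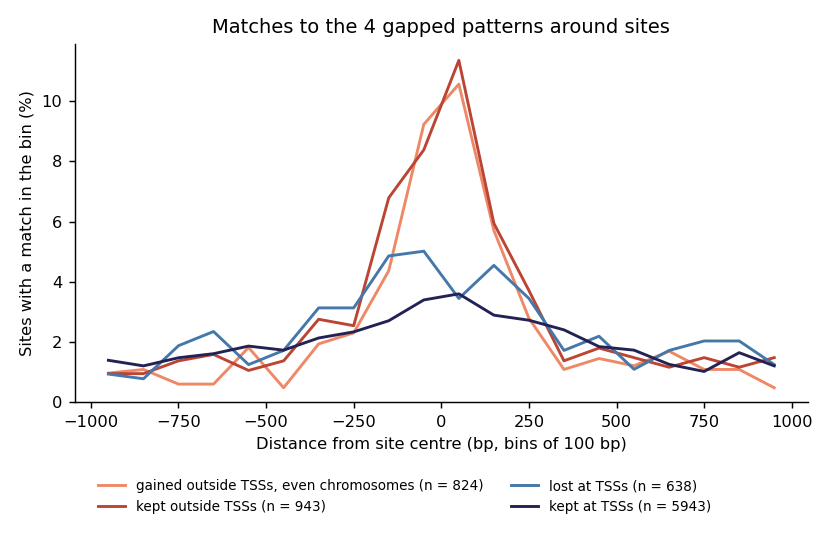
Percentage of sites (vertical axis) with a match to any of the 4 words in each 100 bp bin, by distance from the site centre (horizontal axis, bp), for gained sites outside TSSs on even chromosomes and 3 other classes. In the first 100 bp to the right of the centre, 10.6% of the gained and 11.3% of the kept sites outside TSSs held a match, and both TSS classes stayed below 6%.

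Base composition differed between the classes and between places as well. The centres of gained sites outside TSSs had a median G+C content of 44.0% and an observed over expected ratio of CpG dinucleotides of 0.191, close to the 0.186 of their sides. In the lost sites at TSSs the median was 69.5% and the ratio 0.848, and in the kept sites at TSSs 71.0% and 0.920. Kept sites outside TSSs had 46.0% and 0.336. None of the 638 lost TSS centres lacked a CpG, while 23.5% of the gained centres outside TSSs did. For the other places, gained TSS centres had 48.0% and 0.411, and lost centres outside TSSs had 61.25% and 0.716. The lost sites at TSSs were thus CpG-rich promoters in sequence, as the kept TSS sites were, and the gained sites were not.

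The 4 libraries differed in list length, and this has to be kept beside every count. There were 9528 and 13095 peaks in leptonema experiments 1 and 2 and 15699 and 11314 in zygonema experiments 1 and 2. Peaks at TSSs numbered 7572 and 9656 in leptonema and 7347 and 7022 in zygonema. Peaks outside TSSs numbered 1956 and 3439 in leptonema and 8352 and 4292 in zygonema, so that each zygonema library lay above each leptonema one. The share of peaks outside TSSs averaged 23.4% ± 4.05 over the leptonema pair (SD, n = 2) and 45.6% ± 10.8 over the zygonema pair (SD, n = 2), a difference of 22.2 percentage points. The groups did not overlap, and the two-sided exact permutation test gave p = 0.333, the smallest that 2 libraries against 2 allow. The labels do not say whether the experiments used separate animals, so the spread between libraries may be technical.

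**Figure D2:**
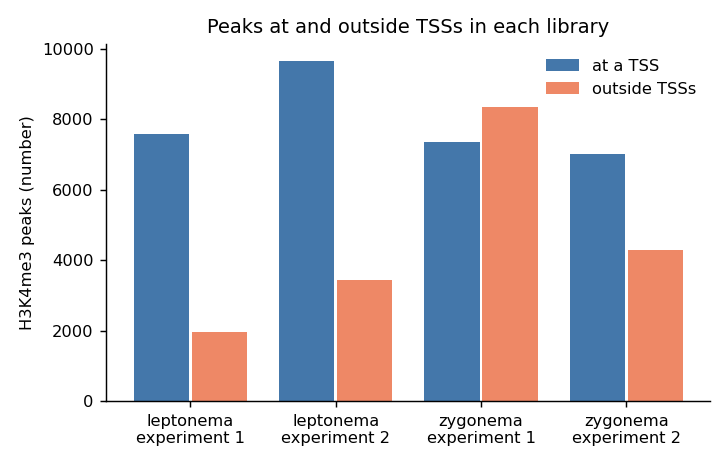
Number of H3K4me3 peaks (vertical axis) at a TSS and outside TSSs in each of the 4 libraries; each bar is 1 library. The number at TSSs lies between 7022 and 9656 in all 4, and the number outside TSSs is 1956 and 3439 in leptonema and 8352 and 4292 in zygonema.

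Single libraries held many sites of their own. Zygonema experiment 1 alone had a peak at 5089 sites, of which 93.3% lay outside TSSs, and zygonema experiment 2 alone had 897, of which 79.4% did. Leptonema experiment 2 alone had 3434 sites, 51.1% of them outside TSSs, and leptonema experiment 1 alone had 189. Without zygonema experiment 2 the number of gained sites was 6913, and without leptonema experiment 1 the number of lost sites was 4215, of which 45.0% lay outside TSSs. With lists shortened to one size by width, 1414 sites were gained (93.1% outside TSSs) and 1249 were lost (11.0% outside TSSs).

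The gained sites outside TSSs lay in gene bodies and between genes alike. By annotation 766 of the 1819 gained sites (42.1%) lay in introns, 685 (37.7%) were intergenic and 237 (13.0%) overlapped exons. Their median distance to the nearest TSS was 13310.5 bp, with quartiles of 5175 bp and 32696.5 bp, and 24.3% of them lay within 5 kb. Their number ran from 0.562 per Mb on chromosome 3 to 0.844 per Mb on chromosome 11. Lost TSS sites ran from 0.152 on chromosome 14 to 0.541 on chromosome 11. Kept sites outside TSSs ran from 0.165 on chromosome 18 to 0.532 on chromosome 11. Kept TSS sites ran from 1.63 on chromosome 14 to 4.39 on chromosome 11. The last 5 Mb of the chromosomes, 3.86% of the sequence, held 4.44% of the gained sites outside TSSs and 6.43% of the lost sites at TSSs. They held 5.26% of the kept sites outside TSSs and 4.88% of those at TSSs.

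The widest gained sites outside TSSs were as wide as large promoters. The site in Grm4, chr17:27451928-27455578, had peaks of 3651 bp in zygonema experiment 1 and 2328 bp in experiment 2 and none in leptonema. An intergenic site at chr4:81463670-81466388 had peaks of 1902 bp and 2634 bp. In an intron of Slit3, which encodes a secreted guidance ligand, the site at chr11:35670350-35672479 had peaks of 2130 bp and 1898 bp. In an intron of Adora2b, an adenosine receptor gene, the site at chr11:62259600-62261406 had peaks of 1721 bp and 1696 bp. All 4 had a zygonema H3K9ac peak and an H3K4me2/3 peak in both stages, and none had an H3K4me3 peak in a later stage. Of these 4 centres, only the one in Grm4 held a match to the words above. Over all gained sites outside TSSs the median width was 856 bp in zygonema experiment 1 and 507 bp in experiment 2. Sites with and without a word had median widths of 872 bp and 852 bp in experiment 1 and 520 bp and 501 bp in experiment 2.

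Libraries that the classes did not use gave a second reading of the same sites. H3K9ac is an acetyl mark of active promoters, and the antibody against H3K4me2/3 (Abcam) reads the dimethyl form too. Of the 1688 gained sites outside TSSs, 1311 (77.7%, 75.6 to 79.6) had an H3K9ac peak in zygonema. None of them had one in leptonema, where the exact interval reaches 0.218%, but the leptonema H3K9ac list was short, with 2823 peaks against 16003. With the H3K4me2/3 antibody, 1623 (96.1%, 95.1 to 97.0) had a peak in zygonema and 1029 (61.0%, 58.6 to 63.3) already had one in leptonema, where neither H3K4me3 library did. That leptonema list came from experiment 2 and was long, with 30943 peaks, and it overlapped 39.9% of the sites outside TSSs that were neither gained, lost nor kept. Of those other sites, 38.2% had a zygonema H3K9ac peak and 64.3% a zygonema H3K4me2/3 peak. Peaks in later stages were rare at the gained sites outside TSSs. From 1 to 8 of the 1688 had a peak in each of the 6 H3K4me3 libraries from early pachynema to diplonema, and 99.2% had none in all 6.

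**Figure D3:**
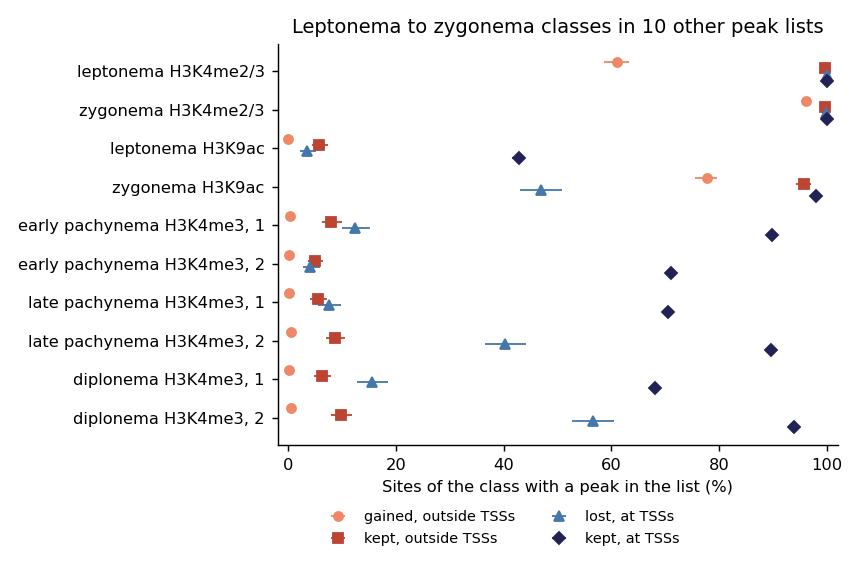
Percentage of sites of 4 classes (horizontal axis, with exact 95% binomial intervals as bars) that overlap a peak in each of 10 further lists (vertical axis, with the experiment number for H3K4me3). Gained sites outside TSSs reach 96.1% in zygonema H3K4me2/3 and 77.7% in zygonema H3K9ac but under 1% in every later H3K4me3 list, whereas kept TSS sites lie between 68.1% and 93.9% there.

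Kept sites outside TSSs had later values nearer to the gained sites than to the kept TSS sites. A zygonema H3K9ac peak was present at 95.8% of the 951 sites and a leptonema one at 5.78%. From 4.94% to 9.78% had a peak in each later H3K4me3 library, and 89.5% (87.4 to 91.4) had none in any. At kept TSS sites 42.8% had a leptonema H3K9ac peak, 98.0% a zygonema one, and 54.8% had a peak in all 6 later libraries.

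The lost TSS sites were seldom bare in zygonema by the other antibodies. All 638 had an H3K4me2/3 peak in leptonema and 637 had one in zygonema. In zygonema 299 (46.9%, 42.9 to 50.8) had an H3K9ac peak, against 98.0% of the kept TSS sites. The peak came back in some later libraries and not in others. In early pachynema 12.4% and 4.08% of the lost TSS sites had a peak in experiments 1 and 2, in late pachynema 7.52% and 40.3%, and in diplonema 15.5% and 56.6%. The lists of late pachynema and diplonema experiment 2 were also the longest of the 6, with 9124 and 12071 peaks. No peak in any of the 6 was found at 38.9% of the sites. In leptonema the lost TSS peaks were narrow, with medians of 343 bp and 641 bp in experiments 1 and 2, against 690 bp and 931 bp at kept TSS sites. A lost site is therefore one without a call in zygonema, and its level there was not measured.

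Lost and kept TSS sites were mostly at protein-coding genes, and gained TSS sites less so. Of the 638 lost TSS sites 94.5% were at a protein-coding gene, of the kept 97.6%, and of the 131 gained 70.2%. By gene, 581 of 20807 protein-coding genes (2.79%) had a peak at one of their TSSs in both leptonema libraries and in neither zygonema library. Another 52 (0.25%) were gained and 6593 (31.7%) kept. The number of lost genes was 1065 with equal list sizes, 1826 without leptonema experiment 1 and 1158 without zygonema experiment 1, and that of gained genes was 27 with equal list sizes, 223 without leptonema experiment 2 and 465 in experiment 1 alone.

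The lost TSS sites with the highest width ranks had peaks over 1 kb in both leptonema libraries. Zfp827, a zinc-finger gene, was called over 2136 bp in leptonema experiment 1 and 3277 bp in experiment 2 and not in zygonema. Spred2, an inhibitor of Ras signalling, had 1686 bp and 2219 bp, and Lrrc4, a leucine-rich repeat gene, had 1645 bp and 2355 bp. Fgfr3, a receptor for fibroblast growth factors, had 1481 bp and 2155 bp. Esrp1, a splicing regulator, had 1190 bp and 2641 bp at its site, and Shb, an adaptor protein gene, had 1148 bp and 2256 bp. All 6 had a zygonema H3K4me2/3 peak, and all but Esrp1 had an H3K4me3 peak in diplonema experiment 2. Zfp827, Lrrc4, Spred2 and Esrp1 also had a zygonema H3K9ac peak, and Fgfr3 and Shb did not. The lost sites outside TSSs with the highest width ranks were intergenic at chr4:131508885-131510799, with 1392 bp and 1915 bp, and chr16:92254000-92256733, with 847 bp and 2734 bp. Another was in an annotated exon at chr14:61684698-61687878, with 932 bp and 3181 bp. The last was in an intron of St6galnac3 at chr3:153426501-153428356, with 953 bp and 1856 bp.

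Some of the gained TSS sites lay at genes that had a leptonema peak outside the site. Of the 131 gained TSS sites, 92 were at a protein-coding gene and 39 were not. Of those 92, 51 (55.4%) had a gene that was not gained when all its TSS windows were counted. This count does not separate a leptonema peak outside the site from a zygonema peak that missed the gene's windows. Likewise, 73 (12.1%) of the 603 lost sites at a protein-coding TSS had a gene that was not lost. The 6 gained TSS sites with the highest width rank all lay at kept genes, which had leptonema peaks outside the gained site. They lay at start sites of Fbh1, a helicase gene, Smc6, of the SMC5/6 complex, Mov10l1, of the piRNA pathway, Atp2b1, a calcium pump gene, Iws1, a transcription elongation factor gene, and Thrap3, a splicing-associated gene. At Smc6 the gained site at chr12:11299755-11301404 had 1650 bp and 1192 bp in zygonema, while all Smc6 TSSs together had 1172 bp and 1173 bp in leptonema. At Mov10l1 the gained site at chr15:89019201-89020396 had 1134 bp and 1165 bp, beside 753 bp and 1064 bp over all its TSSs in leptonema. At Fbh1, chr2:11757904-11759884, the gained peaks were 1981 bp and 1239 bp wide, and 1407 bp and 1426 bp were called over all its TSSs in leptonema. All 6 had a zygonema H3K9ac peak and none had an H3K4me3 peak in a later stage at the gained site.

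Genes of germ cells and of premeiotic S phase were among those lost. No gene of the 12 lists examined was gained, where 0.25% of all protein-coding genes were, and Hsf2bp, a kept gene, was with the wider peaks of each list. Stra8, the retinoic acid target needed for entry into meiosis, was lost, with leptonema widths of 586 bp and 2065 bp. It had no zygonema H3K9ac peak and no H3K4me3 peak in a later library, but it had a zygonema H3K4me2/3 peak. Its protein is the one that gated the leptotene nuclei. With the wider peaks of each list it no longer met the rule for a lost gene. Uchl1, a ubiquitin hydrolase of spermatogonia, had 746 bp and 862 bp in leptonema and no H3K4me3 peak in zygonema, but it had a zygonema H3K9ac peak. Of the 20 genes of spermatogonia and meiotic entry, 2 were lost, where 2.79% of all protein-coding genes were. In this list 9 and 11 had a peak in leptonema and 5 and 6 in zygonema. Peaks at any TSS were also fewer in zygonema, with 7347 and 7022 against 7572 and 9656 in leptonema. The promoter of Stra8 is shown because it lies in a site that only the leptonema libraries called. It was taken from the RefSeq promoter table (GRCm38.p6, plus strand), with its 10 CpG dinucleotides in capitals, inside the lost site chr6:34920110-34922174.
Stra8 promoter at chr6:34920698-34920997: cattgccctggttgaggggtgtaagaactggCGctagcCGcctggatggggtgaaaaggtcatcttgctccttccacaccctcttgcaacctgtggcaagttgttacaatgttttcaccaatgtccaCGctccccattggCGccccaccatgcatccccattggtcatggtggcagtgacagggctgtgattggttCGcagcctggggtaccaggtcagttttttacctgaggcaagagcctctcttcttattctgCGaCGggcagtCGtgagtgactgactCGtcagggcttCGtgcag
Its G+C content was 55.7% over the 300 bases shown. These end before the site centre at position 34921439, so the value cannot be set against those of the lost TSS centres.

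Replication genes kept their peaks in most cases. Of the 24 genes of premeiotic DNA replication found, 21 and 22 had a peak in leptonema and 17 in each zygonema library, with 3 lost, where 2.79% of all genes were lost, and 15 kept. Those lost were Mcm2, a subunit of the replicative helicase, with 222 bp and 893 bp in leptonema, Gins1, with 937 bp and 1846 bp, and Pold1, the catalytic subunit of polymerase delta, with 343 bp and 318 bp. Gins1 had a peak in all 6 later libraries and Mcm2 and Pold1 in none. A zygonema H3K9ac peak was present at Mcm2 and Gins1 and not at Pold1. None of the 3 was lost in every setting, since Gins1 was not lost with TSSs of 1000 bp, Mcm2 not with the wider peaks, and Pold1 neither with these nor with equal list sizes. Among the kept genes, Mcm5 had 1014 bp and 1418 bp in leptonema, then 646 bp and 673 bp in zygonema. Mcm3 had 441 bp and 714 bp in leptonema, then 197 bp and 332 bp in zygonema, and Mcm7 had 1173 bp and 1384 bp in leptonema, then 1305 bp and 1263 bp in zygonema. With each library's widths divided by its median over kept genes, 9 of the 15 kept genes had both zygonema widths below both leptonema widths, against 20.1% of all 6593 kept genes, and 1 had both above, against 20.7%. The median log2 difference was -0.32 over the 15 genes and 0.02 over all kept genes. Replication genes were not alone in this. Both zygonema widths also lay below at 5 of 11 kept genes of DSB formation and PRDM9 and at 5 of 13 of the chromosome axis and synaptonemal complex. This was so for 2 of 16 kept ribosomal protein genes and 1 of 16 genes of the H3K4 methyltransferases and demethylases. The count was 2 of 4 for spermatogonia and meiotic entry and 4 of 13 for strand exchange and crossover. It was 0 of 7 for the pachytene programme and 0 of 5 for spermiogenesis.

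Genes that form and repair DSBs were kept in the larger number, beside 31.7% kept and 2.79% lost among all protein-coding genes. Mei4 and Mei1, both needed for DSB formation, were lost, with 684 bp and 924 bp and with 297 bp and 899 bp in leptonema. Neither had an H3K9ac peak in zygonema, and Mei1 was not lost with the wider peaks of each list. Prdm9 itself was kept, with 1049 bp and 1750 bp in leptonema, then 916 bp and 540 bp in zygonema, and had a peak in all 6 later libraries. Zcwpw1, a reader of H3K4me3 and H3K36me3, was kept with narrower peaks, 3127 bp and 2748 bp in leptonema against 1027 bp and 346 bp in zygonema. Ehmt2 and Ewsr1 were kept as well, with peaks between 595 bp and 1916 bp. Of the 16 genes of this list, 11 were kept, 2 lost and 2 in another combination, and 1 had no peak. Of the 15 genes of the chromosome axis and synaptonemal complex, 13 were kept and none lost. They included Sycp1, whose protein gated the sort, with 1053 bp and 839 bp in leptonema, then 831 bp and 981 bp in zygonema. Sycp3, the axis protein of the gate, had 1191 bp, 2199 bp, 1493 bp and 1062 bp in the order leptonema 1, leptonema 2, zygonema 1 and zygonema 2. Of the 21 genes of strand exchange and crossover, 13 were kept, none was lost, 6 had another combination and 2 no peak. The recombinase gene Dmc1 had 934 bp and 1093 bp in leptonema, then 622 bp and 181 bp in zygonema, and it had a peak in none of the later libraries. It was lost with the wider peaks of each list.

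Some later spermatogenic genes had a peak in both stages, and a difference from the share among all genes was not tested. Of 18 genes of the pachytene programme, 9 and 11 had a peak in leptonema and 10 and 12 in zygonema, and 7 were kept, beside 31.7% of all genes. Among these, the pachytene regulator Mybl1 had 1004 bp and 2041 bp in leptonema, then 1185 bp and 1050 bp in zygonema, and Tcfl5 had 809 bp and 1149 bp, and 1375 bp and 739 bp. Of 23 spermiogenesis genes, 5 were kept, again beside 31.7% of all genes. Crem was among them, with 1220 bp, 1337 bp, 1349 bp and 1064 bp in the order given above. All 16 genes of the H3K4 methyltransferases and demethylases were kept, beside 31.7% of all genes, although Dpy30 was lost with the wider peaks of each list. Kmt2b was kept with 1352 bp and 1596 bp in leptonema, then 1048 bp and 1233 bp in zygonema. Of 24 ribosomal protein genes, 16 were kept and 1 was lost, beside 31.7% and 2.79% of all genes. The lost one was Rpl3, with 642 bp and 464 bp in leptonema, though not with the wider peaks of each list.

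Leptonema experiment 2 stood apart in the developmental transcription factor genes. Of 24 developmental transcription factor genes, 18 had a peak in leptonema experiment 2, 1 in leptonema experiment 1, none in zygonema experiment 1 and 2 in zygonema experiment 2. For 15 of them leptonema experiment 2 was the only library with a peak. Of 12 Sertoli cell genes, 0 and 4 had a peak in leptonema and 0 and 2 in zygonema, and of 18 genes of Leydig and other somatic testis cells, 2 and 1 in leptonema and 1 and 0 in zygonema. The only members of these lists that were lost were Dlx2, a homeobox gene, with 610 bp and 3984 bp, and Pdgfra, a receptor gene of Leydig progenitors, with 622 bp and 4018 bp. Both were wider in experiment 2. A site counts as lost only with a peak in leptonema experiment 1 too, and the part of other cell types in the lost sites was not tested.

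**Figure D4:**
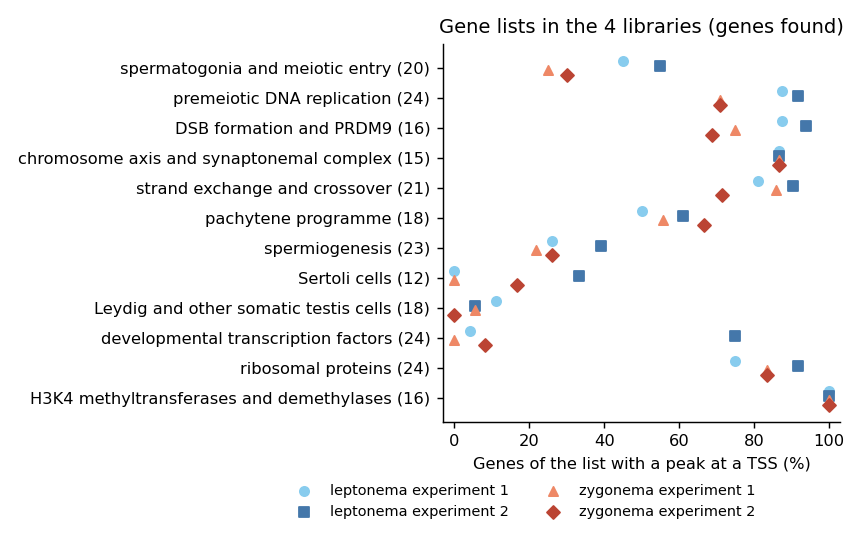
Percentage of the genes of each of 12 lists (vertical axis, genes found in brackets) with an H3K4me3 peak at a TSS in each of the 4 libraries (horizontal axis; each symbol is 1 library). Leptonema experiment 2 holds 18 of 24 developmental transcription factor genes against 0 to 2 in the other libraries, and all 16 genes of the H3K4 enzymes have a peak in all 4.

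At the kept sites, width told TSSs and other sites apart. Widths were taken as log2 of the base pairs called and centred on each library's median over kept sites, which was 693 bp and 886 bp in leptonema, then 776 bp and 636 bp in zygonema. At the 951 kept sites outside TSSs the median width was 722 bp and 651 bp in leptonema, then 1293 bp and 1028 bp in zygonema. The median difference between the stages was 0.96 on the log2 scale, 0.60 within experiment 1 and 1.23 within experiment 2. At the 5944 kept TSS sites the medians were 690 bp and 931 bp in leptonema, then 715 bp and 602 bp in zygonema, and the median difference was -0.12 in each experiment and in the fit. Without centring, which moved the median of all kept sites from -0.04 to -0.20, these differences were 0.81 and -0.27.

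Both zygonema widths exceeded both leptonema widths at 691 (72.7%) of the kept sites outside TSSs and at 796 (13.4%) of those at TSSs, against 21.6% of all kept sites. Both lay below at 24 (2.52%) and 1674 (28.2%), against 24.6%. No single site passed limma's test at an adjusted p under 0.05, so that wider and narrower calls were both 0 of 6895 (0%), with a smallest adjusted p of 0.244. At an unadjusted p under 0.05, 553 sites were wider and 428 narrower, and 413 of the wider ones lay outside TSSs while 417 of the narrower ones lay at TSSs. Because no site passed, the examples that follow were chosen after their values were seen, for the size of the difference.

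**Figure D5:**
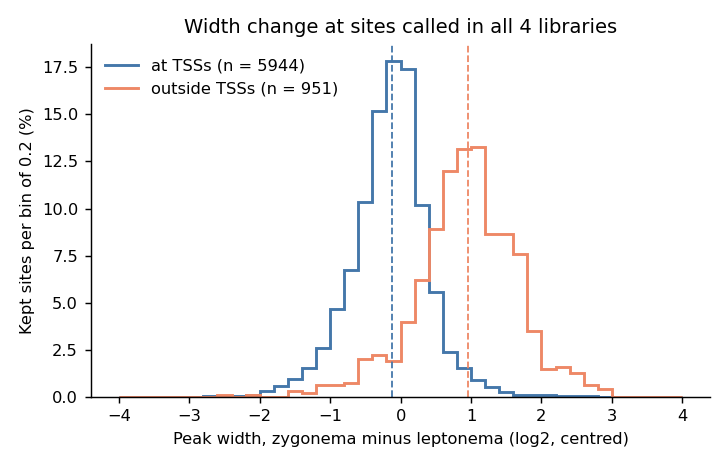
Distribution of the log2 difference in peak width, zygonema minus leptonema (horizontal axis, centred per library), over kept sites at TSSs and outside TSSs, as a percentage of each set per bin (vertical axis); dashed lines are medians. The median is 0.96 outside TSSs and -0.12 at TSSs, and the histograms overlap.

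An intronic site of Pde9a, a cyclic GMP phosphodiesterase gene, at chr17:31411348-31412853 measured 183 bp and 205 bp in leptonema, then 1359 bp and 1206 bp in zygonema (log2 difference 2.88 ± 0.28 SE, limma adjusted p = 0.244). An intergenic site at chr6:33224330-33227185 had 412 bp and 189 bp in leptonema, then 1242 bp and 2856 bp in zygonema. At chr15:13737042-13739322, also intergenic, the widths were 191 bp and 288 bp, and then 1242 bp and 1918 bp. All 3 had a zygonema H3K9ac peak and no H3K4me3 peak in a later stage. In the other direction, the TSS site of Kif23, a kinesin gene of cytokinesis, had 1050 bp and 2240 bp in leptonema, then 257 bp and 297 bp in zygonema (log2 difference -2.32 ± 0.38 SE, limma adjusted p = 0.244). Zfp39, a zinc-finger gene, had 1132 bp and 2091 bp, and then 176 bp and 287 bp, and Dsel had 1010 bp and 2042 bp, and then 171 bp and 390 bp. At the TSS shared by Ndufa11, of respiratory complex I, and Vmac, widths ran from 167 bp and 396 bp in leptonema to 1567 bp and 1363 bp in zygonema.

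Among the widest kept sites, 1 lay outside TSSs. In Enpp6, which encodes a choline-specific phosphodiesterase, the site at chr8:46998450-47008092 overlapped an annotated exon. It had 4781 bp and 4236 bp in leptonema, then 9643 bp and 5840 bp in zygonema. It had neither an H3K9ac peak nor an H3K4me3 peak in a later stage. At Kmt2e, a gene of the MLL family, at chr5:23432119-23436087, peaks measured 2739 bp and 3969 bp in leptonema, then 2808 bp and 2867 bp in zygonema. Pex19, a peroxisome biogenesis gene, at chr1:172125952-172130007 had 2234 bp and 3597 bp, and then 3454 bp and 3397 bp. At Gm21738 on chr14:19415717-19419618 all 4 peaks were between 3863 bp and 3902 bp wide, and every other list had a peak there. The paper removed blacklisted regions when it annotated peaks, and no such filter was applied here. Whether the Gm21738 site falls in such a region was not tested.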

How the data were processed

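H3K4me3 was read from the peak lists that the authors deposited. Per the labels and the Methods, reads were aligned to mm10 with BWA 0.7.12, and peaks were called per library, not pooled, with MACS2 2.1.2 in broad mode against stage-matched input. The lists give chromosome, start and end on chromosomes 1 to 19, with no score, signal or count, so depth and the precision of a call are unknown and sites below the threshold cannot be told from unmarked ones. The label of the H3K9ac libraries names an H3K4me3 antibody, whereas their titles and the Methods give H3K9ac, which was followed here. The other 37 samples were not analysed here.

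Overlaps of at least 1 bp merged peaks into sites (Python 3.11.15, scipy 1.17.1, numpy 2.4.6). TSSs were 125891 positions of GENCODE M21. Sites outside TSSs were assigned in the order exon, intron, intergenic, by overlap with any annotated gene. Widths at kept sites were compared with limma 3.58.1 (R 4.3.3) on centred log2 base pairs, 2 libraries against 2, with Benjamini-Hochberg adjustment and a threshold of 0.05. Intervals were exact binomial (Clopper-Pearson). Words were counted in the GRCm38.p6 sequence, which is the build of the lists, and promoters came from RefSeq. The steps were tested on simulated data.

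The members and lists were chosen with earlier results of these data known. The sites and genes named were the 4 sites outside TSSs and 6 protein-coding TSS genes per class with the highest mean width rank, the 4 widest kept sites, the lost members of the lists and up to 4 kept members of each, in list order. A gene that this rule names is not reported here. The rule for kept sites past the width test named none. Alternatives were a merge distance of 500 bp, equal list sizes, the wider peaks of each list, TSSs of 1000 bp or of protein-coding genes only, each library left out, each experiment alone, and, for widths, no centring, width ranks, a minimum mean width and a replicate block. Those for the share per library, the median widths and the named sites were added after seeing the data.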

Additional observations from a re-analysis of the deposited data

How the results depend on the processing

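The counts and the share of lost sites outside TSSs depended on the lists, and the share of gained sites outside TSSs moved less. Gained sites numbered 7510 in experiment 1 alone and 3265 in experiment 2 alone, against 1819 with both, and 1819 became 2195 to 6913 with each library left out in turn. Lost sites numbered 1346 and 5089 in the single experiments, 1249 with equal list sizes and 995 to 4215 with each library left out. Kept sites numbered 4274 with equal list sizes and 2541 with the wider peaks of each list. Lost genes numbered 949 and 2530 in the single experiments, 1065 with equal list sizes and 658 to 1826 with each library left out; gained genes numbered 465, 209 and 27 in the same settings, 94 with the wider peaks and 80 to 223 with each library left out. The share of gained sites outside TSSs was 89.5% and 88.7% in the single experiments, 87.96% with the wider peaks, 89.5% with TSSs of 1000 bp, 94.9% with protein-coding TSSs and 85.8% to 93.3% with each library left out. For lost sites it was 22.0%, 40.7%, 11.0% with equal list sizes, 5.74% with the wider peaks, 22.1% with protein-coding TSSs and 15.4% to 45.0% with each library left out. The difference between the stages in the share of peaks outside TSSs was 32.7 points in experiment 1 and 11.7 in experiment 2, and 14.5 to 29.8 with each library left out. The cause of these shifts was not tested, beyond the smaller number of lists that must lack or hold a peak when a library is left out.

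The experiment numbers did not pair the samples by a stated animal or day. The replicate differences of the stages correlated with r = 0.095 over the 6895 kept sites, and the replicate block gave 0 wider and 0 narrower sites, as did all other width settings. The median difference outside TSSs lay between 0.66 and 1.18 with each library left out. Of the named genes and sites, 112 had as many leptonema as zygonema libraries with a peak. Of these, 1 met the rule for lost with equal list sizes, and with the wider peaks 11 did (Dmc1 and Dpy30 among them) and 1 met that for gained (Hsf2bp). Of the 26 lost ones, 5 were not lost with the wider peaks (Mcm2, Mei1, Pold1, Rpl3 and Stra8), 1 with equal list sizes (Pold1) and 1 with TSSs of 1000 bp (Gins1). Depth is unknown, so neither a missing peak nor a narrow one can be read as a measured level.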
